A study of Mus musculus with 21 samples.

Results

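Interferon-stimulated genes (ISGs) are the genes that cells switch on when an interferon reaches its receptor. They were followed here as a set of 41 named genes in bulk RNA sequencing of mouse choroid plexus, a folded epithelium inside the ventricles that makes cerebrospinal fluid, and of hypothalamus. The members were taken by gene symbol, and all 41 were found among the 25239 gene rows of each tissue's table. The mice were listed as wild-type C57BL/6J, and the tested group had Ins2, a mouse insulin gene, overexpressed in the choroid plexus. There were 6 choroid plexus libraries from Ins2 mice and 5 from control mice, and 5 hypothalamus libraries from Ins2 mice and 5 from control mice, 21 in all. Control mice were labelled as untreated, although the column names of the hypothalamus controls carry a GFP prefix, and the labels state neither how Ins2 was delivered nor the animals' age. Nothing in the labels says whether libraries of one group came from separate animals, so the p-values measure the spread between these libraries, which may be technical.

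Type I interferons bind the IFNAR1 and IFNAR2 receptor pair, whose kinases JAK1 and TYK2 activate transcription factors that include STAT2. STAT2 and IRF9 are subunits of the factor ISGF3, which binds interferon-stimulated response elements in promoters. Type II interferon, IFN-γ, acts through the receptor subunits IFNGR1 and IFNGR2, and is the stronger inducer of the immunity-related and guanylate-binding GTPases. In brain, the choroid plexus epithelium and its resident macrophages are known to respond to both kinds of interferon.

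Promoter sequence for 31 of the 41 members was held in a RefSeq table of build GRCm38.p6, as windows of 300 bases around the annotated start. A core of the response element, GAAANNGAAA on either strand, was present in 16 of these 31 genes (51.6%), against 3.99% of the 27025 genes with such a window. All 5 of the GTPase members held at least 1 GAAANNGAAA match. The windows of 5 members that the values below turn on are shown 5′ to 3′ in the direction of transcription, with the matched bases in capitals (TTTCNNTTTC where the match lies on the other strand). They are Irgm1 (chr11:48871371-48871670, minus strand), Igtp (chr11:58199306-58199605, plus strand), Isg15 (chr4:156200769-156201068, minus strand), Rsad2 (chr12:26456403-26456702, minus strand) and Ifit1 (chr19:34640639-34640938, plus strand).
Irgm1: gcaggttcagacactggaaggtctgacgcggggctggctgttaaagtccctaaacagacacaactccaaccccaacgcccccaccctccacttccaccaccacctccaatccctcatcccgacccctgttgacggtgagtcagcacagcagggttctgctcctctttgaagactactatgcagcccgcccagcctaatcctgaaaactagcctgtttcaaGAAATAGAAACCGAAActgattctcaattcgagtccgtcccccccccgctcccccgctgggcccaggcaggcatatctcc
Igtp: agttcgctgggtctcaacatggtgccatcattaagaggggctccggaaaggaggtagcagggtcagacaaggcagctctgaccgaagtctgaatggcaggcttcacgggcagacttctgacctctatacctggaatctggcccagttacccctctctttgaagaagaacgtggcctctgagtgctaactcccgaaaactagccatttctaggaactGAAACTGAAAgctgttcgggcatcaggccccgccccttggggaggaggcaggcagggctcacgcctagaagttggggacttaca
Isg15: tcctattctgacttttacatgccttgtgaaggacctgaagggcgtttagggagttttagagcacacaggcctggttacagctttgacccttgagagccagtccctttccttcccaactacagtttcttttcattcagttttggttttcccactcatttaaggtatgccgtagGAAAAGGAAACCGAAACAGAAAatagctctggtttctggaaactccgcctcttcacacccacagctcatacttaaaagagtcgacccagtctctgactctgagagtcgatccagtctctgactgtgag
Rsad2: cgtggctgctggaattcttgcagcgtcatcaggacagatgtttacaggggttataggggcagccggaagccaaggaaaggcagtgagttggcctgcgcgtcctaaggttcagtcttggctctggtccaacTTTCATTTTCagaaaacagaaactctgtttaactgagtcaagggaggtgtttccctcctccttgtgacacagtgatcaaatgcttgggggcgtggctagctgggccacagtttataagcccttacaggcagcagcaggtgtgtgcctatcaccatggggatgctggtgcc
Ifit1: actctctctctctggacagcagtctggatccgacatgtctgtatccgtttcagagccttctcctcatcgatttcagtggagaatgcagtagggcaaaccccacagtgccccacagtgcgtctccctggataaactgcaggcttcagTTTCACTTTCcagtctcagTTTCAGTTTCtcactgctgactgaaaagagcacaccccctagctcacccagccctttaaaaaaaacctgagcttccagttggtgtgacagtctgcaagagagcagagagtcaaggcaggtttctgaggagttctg
Overlapping matches run together as 1 stretch of capitals, as the 3 matches of Isg15 and the 2 of Irgm1 do. A match describes these letters and is not a measured binding site.

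The deposited values are reads per gene divided by a size factor for each library, so they are called scaled reads here. The factors were set within each tissue, and levels were therefore not compared between tissues. Libraries held 25950069 to 36289667 reads in choroid plexus and 27368464 to 62062133 in hypothalamus. Ins2 itself ranged over 598 to 1041 scaled reads in Ins2 choroid plexus, against 387 to 501 in control choroid plexus, a 1.90-fold difference with an adjusted p of 0.00594 (limma, Benjamini-Hochberg). It had no read in 9 of the 10 hypothalamus libraries and 5 reads in the other. The 10 epithelial markers of choroid plexus were all detected there, and the 12 hypothalamic markers were all detected in hypothalamus. Choroid plexus control 2 stood apart, with an oligodendrocyte marker sum of 52388 scaled reads against at most 5532 in any other choroid plexus library, and control 5 had the lowest macrophage marker sum, 822. Results were therefore also obtained without these 2 controls.

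A gene was tested where its mean over the libraries of a tissue was at least 10 scaled reads. In choroid plexus 37 members passed, and Oas2, Oas3, Oasl1 and Mx1 did not. In hypothalamus 39 passed, and Zbp1 and Oasl1 did not. In the GENCODE annotation 7 members (Ifit1, Ifit3, Herc6, Gbp7, Igtp, Rtp4 and Ifitm3) share over 5% of their exonic 50-base stretches with another gene, so their counts are less certain. Per kilobase of exon, the control levels of choroid plexus were led by Ifi27, a mitochondrial and nuclear envelope protein (7205 scaled reads per kb), Lgals3bp, a secreted glycoprotein (4781), Bst2, the tethering factor tetherin (2564), and Ifitm3, an inhibitor of viral entry (869). Mx1 was last at 0.219 scaled reads per kb. In control hypothalamus Ifi27 again led with 767 scaled reads per kb, followed by Lgals3bp (517) and Ifitm3 (371), and Oas3 was last at 1.5.

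In choroid plexus, no member passed an adjusted p of 0.05 between Ins2 and control, against 2 of 14533 genes tested (0.0138%). The smallest adjusted p of a member was 0.584, for Irgm1 (limma). At an unadjusted p under 0.05, 4 members had a higher mean in Ins2 libraries (Isg15, Igtp, Irgm1 and Parp9), 10.8% of the 37 against 2.54% of all genes. On the same rule 1 member had a lower mean (Rsad2), 2.70% against 3.67% of all genes. On reads recovered from the values, no member passed with edgeR or DESeq2, and 5 and 3 members had a higher mean at an unadjusted p under 0.05. The share of all genes at that level under these tools is not given, so these 2 counts have no background beside them. No tested member had groups that did not overlap, against 0.234% of all genes with Ins2 above control and 0.392% with Ins2 below. Leaving out 1 library at a time, the count of members with a higher mean at that level ran from 2 to 6. It was 2 without Ins2 replicate 1, Ins2 replicate 3 or control 1, and 6 without Ins2 replicate 4 or Ins2 replicate 5. The single member with a lower mean, Rsad2, no longer counted at that level without Ins2 replicate 1, 2, 4 or 6 or without control 1, 2 or 3.

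The log2 fold change, Ins2 over control, was above 0 for 30 of the 37 members, against 48.4% of all genes tested. The median over members was 0.13 on the log2 scale, beside −0.0045 over all genes, and the mean was 0.21. The median was 0.20 without Ins2 replicate 4 and 0.085 without Ins2 replicate 6. It was 0.11 without controls 2 and 5. Zbp1 passed the minimum only through the Ins2 group, where it is high, so it had to differ. Without it, 29 of 36 members were above 0 and the median was again 0.13. As a description, 5 other members had a log2 fold change past 0.5 in size: Isg15 (1.14), Ifi44 (0.99), Gbp3 (0.69), Irgm1 (0.50) and Igtp (0.50). The 31 members with a mean of at least 50 scaled reads had a median of 0.095, with 24 above 0. The 5 members with a lower mean whose groups both reached 10 scaled reads had a median of 0.30, and all 5 were above 0.

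**Figure D1:**
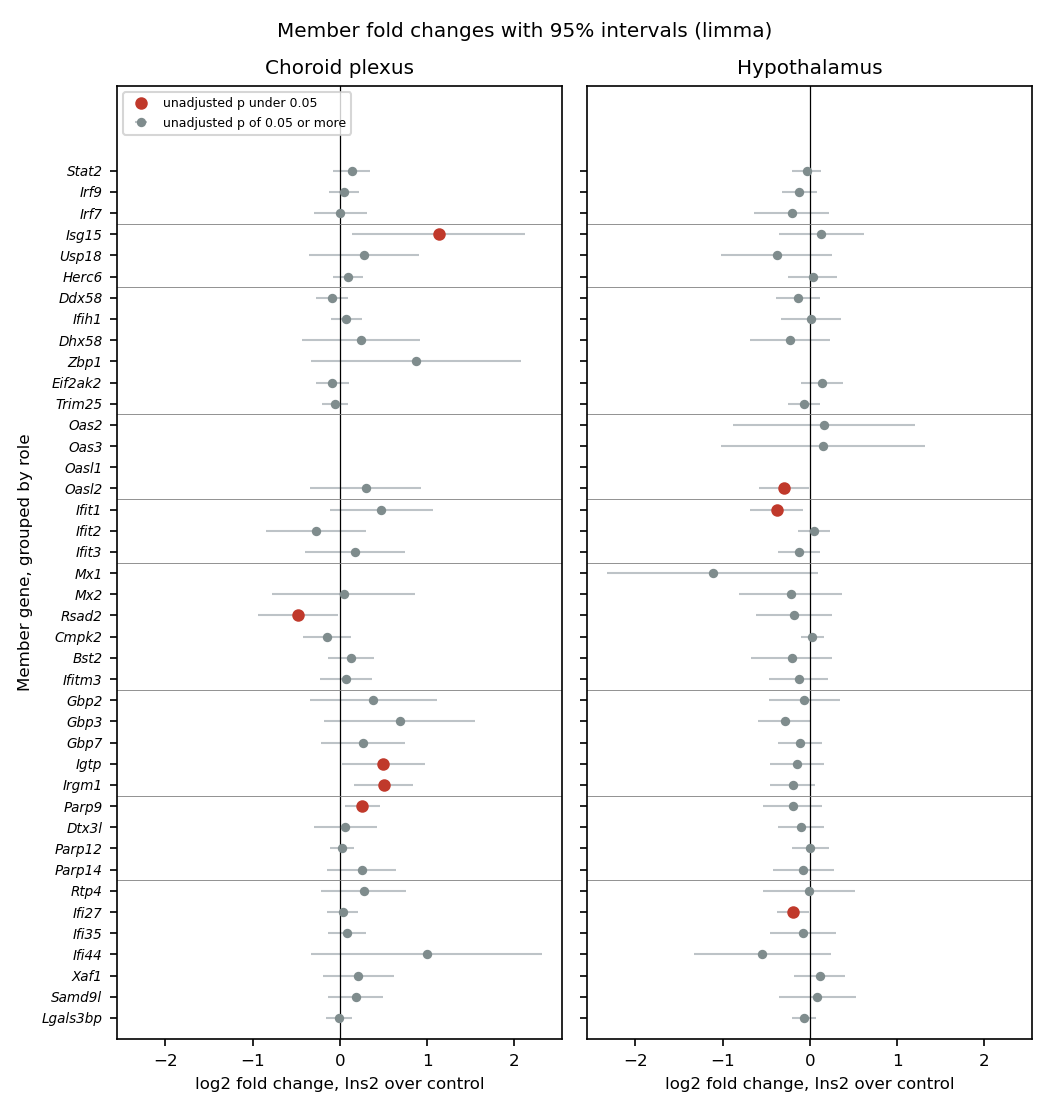
Log2 fold change of each tested member, Ins2 over control, in choroid plexus (left) and hypothalamus (right). Points are limma estimates on log2(scaled reads + 1), bars are 95% intervals, red points have an unadjusted p under 0.05, and horizontal lines separate the roles; 30 of 37 points lie above 0 in choroid plexus and 28 of 39 below 0 in hypothalamus, and no member passed the adjusted threshold.

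A score per library was taken as the mean, over the tested members, of the deviation from the control mean on the log2(scaled reads + 1) scale. In choroid plexus the score and the member counts below include Zbp1, which passed the minimum only through the Ins2 group. Scores without Zbp1 are not given. In Ins2 choroid plexus, replicates 1 to 6 scored 0.25, 0.13, 0.47, −0.12, 0.010 and 0.50. In control choroid plexus, replicates 1 to 5 scored −0.081, 0.13, 0.022, −0.014 and −0.057. Ins2 replicates 3 and 6 stood highest, replicate 1 next, replicate 2 lay just under control 2, and replicates 4 and 5 lay inside or below the control range. The mean was 0.21 ± 0.25 in Ins2 libraries and 0 ± 0.083 in control libraries (SD, n = 6 and 5), the control mean being 0 by construction. The spread of scores was thus about as large as their mean among Ins2 libraries. Ins2 replicate 6 was the highest of all 11 libraries for 13 members and replicate 3 for 7, whereas replicate 5 was the lowest for 9 members and replicate 4 for 6. In replicate 6, 35 of the 37 members were above the control mean, and in replicates 4 and 5 the number was 14 and 12.

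**Figure D2:**
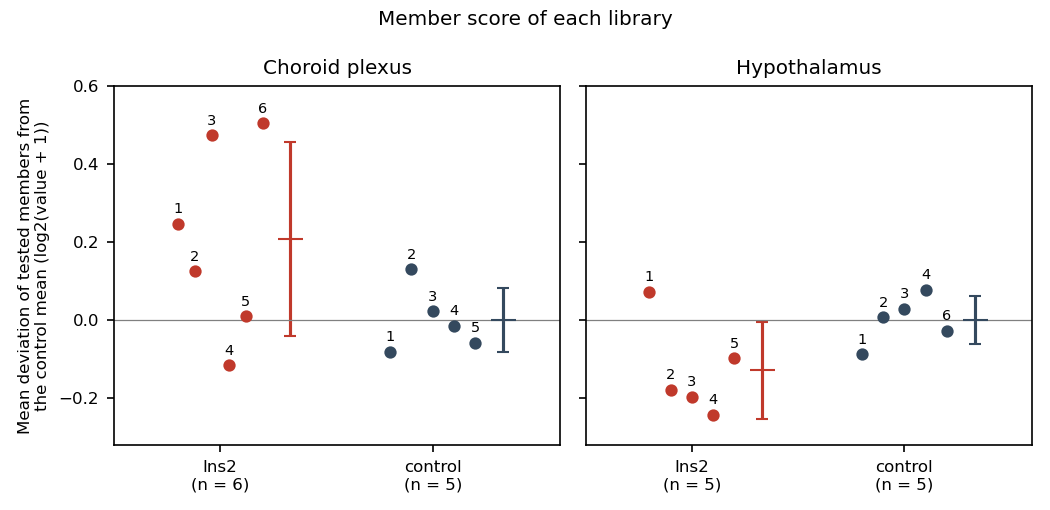
Member score of each library, by tissue and group, with replicate numbers beside the points; the y axis is the mean deviation of the tested members from the control mean on the log2(scaled reads + 1) scale, and bars to the right of the points are the mean and SD. In choroid plexus 3 Ins2 libraries lie above all 5 controls and 1 below them. In hypothalamus 4 of 5 Ins2 libraries lie below every control. The scores include Zbp1 in choroid plexus and Mx1 in hypothalamus, each of which passed the minimum only through the group where it is high.

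The interferon-induced GTPases had the highest class median in choroid plexus, with all 5 log2 fold changes above 0, a median of 0.50 and a range of 0.27 to 0.69. These proteins assemble on pathogen vacuoles and other membranes. Irgm1, an immunity-related GTPase that regulates other members of its family, had 662, 780.4, 1024, 657, 519 and 1179 scaled reads in Ins2 replicates 1 to 6, against 552, 568, 492, 465 and 667 in control replicates 1 to 5. Ins2 replicates 2, 3 and 6 were above every control, replicates 1 and 4 lay just under the highest control, and replicate 5 was within the control range. The fold was 1.42 with a 95% interval of 1.12 to 1.79 and an adjusted p of 0.584 in limma, and an exact two-sided permutation test over 462 splits gave p = 0.0476. Igtp, its relative that acts at the vacuole membrane, ranged over 266 to 770.4 scaled reads in Ins2 libraries, against 226 to 417 in control libraries. Its fold was 1.42 (limma adjusted p 0.793, exact permutation p = 0.143). Igtp shares 11.8% of its 50-base stretches with Irgm2, so its reads may be split with that gene.

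The guanylate-binding proteins, which coat and lyse pathogen vacuoles, were scattered within the groups. Gbp2, Gbp3 and Gbp7 had folds of 1.31, 1.61 and 1.20, with adjusted limma p-values of 0.907, 0.839 and 0.902. The score over the 5 GTPases was 0.44, 0.68, 1.24, −0.30, −0.36 and 1.1 in Ins2 replicates 1 to 6, against −0.46, 0.24, −0.23, 0.020 and 0.42 in control replicates 1 to 5. Ins2 replicates 1, 2, 3 and 6 were above every control, and replicates 4 and 5 were below 4 of the 5 controls. Without the GTPases the remaining 32 members had a median fold change of 0.090 on the log2 scale, with 25 above 0.

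The ISG15 system, a ubiquitin-like modifier with its ligase and protease, had all 3 members above 0. Isg15, the modifier itself, had a lowest value of 11.1, a median of 20.3 and a highest value of 31.1 scaled reads in Ins2 libraries. Its values in control replicates 1 to 5 were 5.15, 7.75, 26.1, 5.94 and 6.48. All 6 Ins2 libraries were above 4 of the controls, and control 3 lay inside the Ins2 range. The fold was 2.20 with a 95% interval of 1.11 to 4.37 (limma adjusted p 0.758, exact permutation p = 0.0303), and the log2 fold change of 1.14 was 1.51 without control 3. Usp18, the protease that removes ISG15 and damps receptor signalling, had a fold of 1.21, and Herc6, the mouse ligase for ISG15, had 1.07.

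The PARP family had all 4 members above 0 with a median of 0.16. Parp9, an ADP-ribosyltransferase that works in a complex with DTX3L, had a lowest value of 338, a median of 394 and a highest value of 445 scaled reads in Ins2 libraries. It had 350.2, 348, 334, 305 and 312 scaled reads in control replicates 1 to 5. In 5 of the 6 Ins2 libraries the value was above every control, and replicate 5 was inside the control range. The fold was 1.20 with a 95% interval of 1.04 to 1.38 (limma adjusted p 0.711, exact permutation p = 0.0130). Dtx3l, its partner gene on the opposite strand, had a fold of 1.05. The 2 genes share 458 exonic bases, 9.40% of those of Parp9, which counting without strand could not divide. Parp12 and Parp14 had folds of 1.02 and 1.19.

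**Figure D3:**
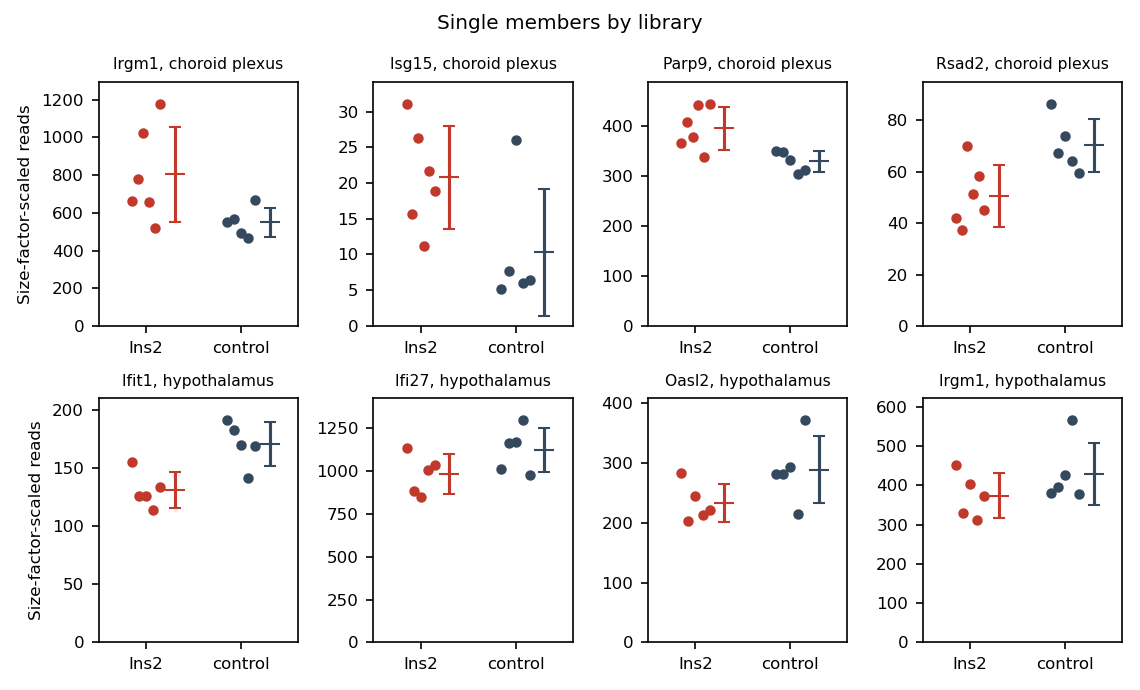
Scaled reads in each library for 4 members in choroid plexus (top row) and 4 in hypothalamus (bottom row), Ins2 left and control right; points are libraries and bars to their right are the mean and SD. In choroid plexus most Ins2 points of Irgm1, Isg15 and Parp9 lie high and those of Rsad2 low, and in hypothalamus 4 of 5 Ins2 points of Ifit1 lie under every control.

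Antiviral effectors did not share one direction. Rsad2, the radical-SAM enzyme viperin, had a lowest value of 37.2, a median of 48.2 and a highest value of 70.2 scaled reads in Ins2 choroid plexus. It had 86.5, 67.1, 73.9, 64.4 and 59.4 scaled reads in control replicates 1 to 5. In 5 of the 6 Ins2 libraries it was below every control, and replicate 3, one of the 2 with the highest score, was inside the control range. The fold was 0.716 with a 95% interval of 0.522 to 0.983 (limma adjusted p 0.793, exact permutation p = 0.0260). Cmpk2, the mitochondrial nucleotide kinase encoded beside Rsad2 on chromosome 12, had a fold of 0.905. Bst2 and Ifitm3 had folds of 1.1 and 1.05, and Mx2, a dynamin-like GTPase, had 1.03. The class had a median of 0.045 and a mean of −0.076 on the log2 scale, which differ in sign.

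Mx1, which in most laboratory mouse strains is a non-functional allele, was under the minimum in choroid plexus. It had 7.32, 4.96, 9.88, 3.34, 0.942 and 12.6 scaled reads in Ins2 replicates 1 to 6, against 0, 0, 2.17, 1.98 and 0 in control replicates 1 to 5. Ins2 replicates 1, 2, 3, 4 and 6 were above every control and replicate 5 was not, at a depth where 3 reads correspond to 2.48 to 3.34 scaled reads. The exact permutation p was 0.0152, and no fold is given because the controls are near the limit of detection. Mx1 also reached no adjusted threshold when the minimum was removed.

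The IFIT proteins, which bind foreign RNA ends, gave mixed values. Ifit1 had a lowest value of 46.3, a median of 83.6 and a highest value of 121 scaled reads in Ins2 choroid plexus, against 42.2, 109, 72.8, 47.5 and 45.3 in control replicates 1 to 5, so the groups overlapped. Its fold was 1.39 (limma adjusted p 0.839, exact permutation p = 0.158), that of Ifit3 was 1.13 and that of Ifit2 was 0.828. Ifit3 shares 51.2% of its 50-base stretches with Ifit3b, and its reads may be split between the copies.

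Of the OAS family, the enzymes that activate RNase L and their relatives, only Oasl2 was abundant enough to test. Oasl2 had a lowest value of 33.4, a median of 50 and a highest value of 82.3 scaled reads in Ins2 libraries, against 66.9, 50.8, 26.1, 48.5 and 28.1 in control replicates 1 to 5. The ranges overlapped and the fold was 1.23 (limma adjusted p 0.922, exact permutation p = 0.374). Oas2, Oas3 and Oasl1 had means between 1.84 and 9.59 scaled reads in Ins2 libraries and between 2.83 and 9.56 in control libraries.

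Nucleic acid sensors had 3 members above 0 and 3 below, with a median of 0.010. Zbp1, among those above 0, passed the minimum only through the Ins2 group, so its direction was set. Without it, Ifih1 and Dhx58 were above 0, and Ddx58, Eif2ak2 and Trim25 were below. Zbp1, the sensor of Z-form nucleic acid, had 20.1, 4.13, 15.4, 5.57, 26.4 and 11.6 scaled reads in Ins2 replicates 1 to 6, against 10.3, 4.30, 6.52, 6.93 and 3.24 in control replicates 1 to 5. Ins2 replicates 1, 3, 5 and 6 were above every control, and replicates 2 and 4 were within the control range. The fold was 1.84 with a 95% interval of 0.798 to 4.23 (limma adjusted p 0.867), in a gene whose control mean of 6.26 scaled reads lay under the minimum. The RNA helicases Ddx58 (RIG-I), Ifih1 (MDA5) and Dhx58 (LGP2) had folds of 0.940, 1.05 and 1.18, the kinase Eif2ak2 (PKR) had 0.942, and Trim25, the ubiquitin ligase for RIG-I, had 0.962.

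The signal transcription factors lay close to 1. Stat2 had a lowest value of 533, a median of 661 and a highest value of 795 scaled reads in Ins2 choroid plexus. It had 621, 648, 569, 635 and 499.7 in control replicates 1 to 5, with a fold of 1.1 (limma adjusted p 0.895, exact permutation p = 0.275). Irf9, the DNA-binding subunit of ISGF3, had a fold of 1.03, and Irf7, which amplifies type I interferon production, had 1.0. Among the remaining members, Ifi44, a cytoplasmic protein of the antiviral programme, had 22.9, 17.4, 32.9, 4.45, 12.2 and 20.0 scaled reads in Ins2 replicates 1 to 6. Its values in control replicates 1 to 5 were 4.12, 9.47, 17.4, 19.8 and 1.08. The groups overlapped, and its fold of 1.99 had a 95% interval of 0.798 to 4.98 (limma adjusted p 0.852, exact permutation p = 0.173). Rtp4, a chaperone for receptor transport, had a fold of 1.21, Xaf1, a pro-apoptotic factor, had 1.16, Samd9l, a restriction factor, had 1.14, and Ifi35 had 1.06. The 2 most abundant members per kilobase, Ifi27 and Lgals3bp, had folds of 1.02 and 0.993.

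**Figure D4:**
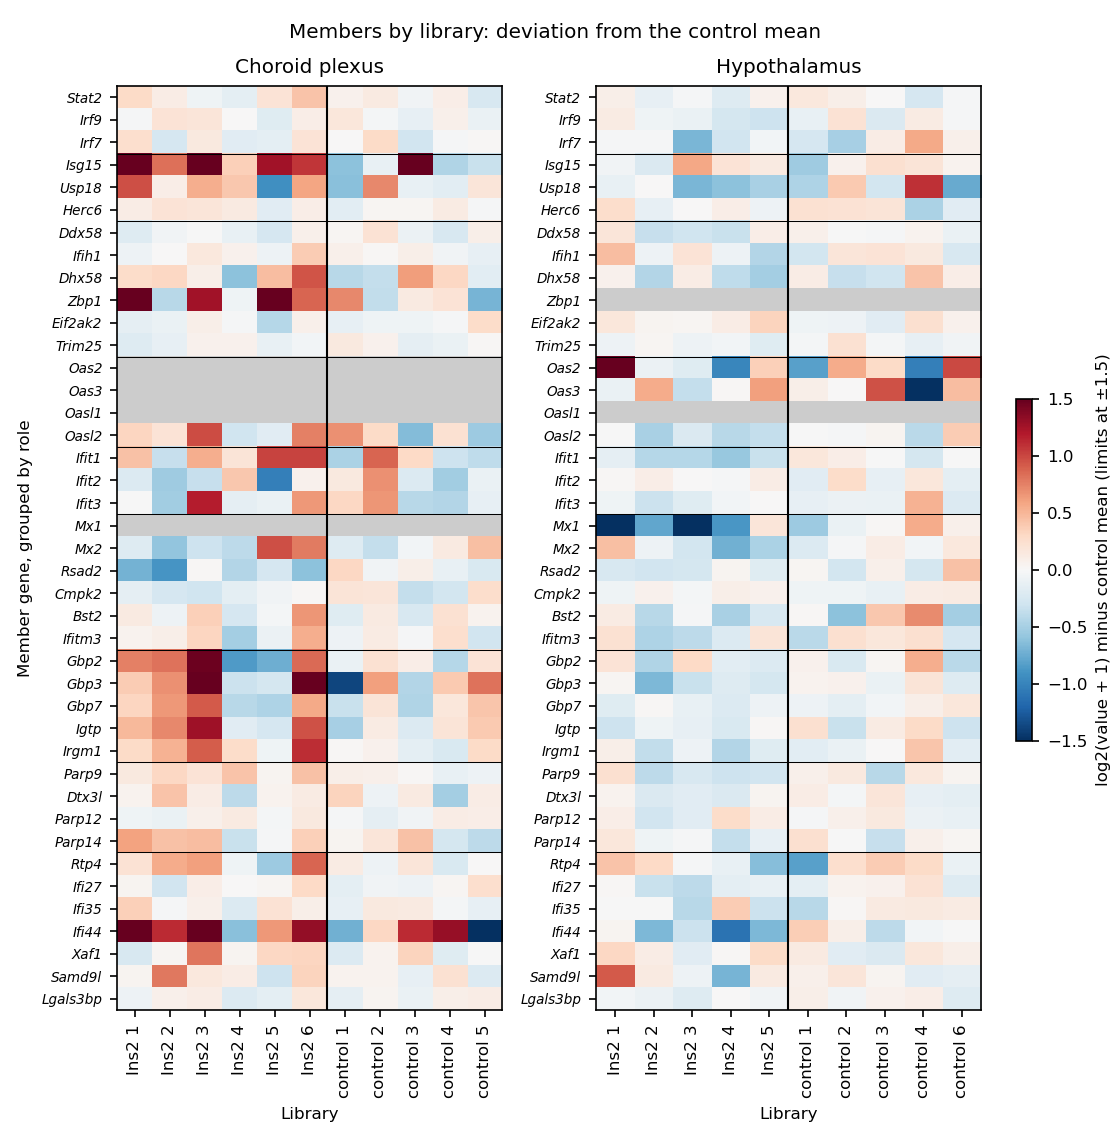
Deviation of each member from its control mean in each library, on the log2(scaled reads + 1) scale, in choroid plexus (left) and hypothalamus (right), with Ins2 libraries left of the vertical line and horizontal lines between roles; grey rows were under the minimum, and colours end at ±1.5. The GTPase rows are high in Ins2 replicates 1, 2, 3 and 6 of choroid plexus and low in 4 and 5, except Irgm1, which is above its control mean in 4. Most rows of Ins2 replicates 2, 3 and 4 of hypothalamus are low.

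Genes upstream and around the members were set beside them. Of 21 interferon ligand genes, none reached the minimum in either tissue, and 17 had no read in any choroid plexus library. Ifnb1, encoding IFN-β, had 0 reads in all 21 libraries, which allows up to 3 reads in each. Ifng, encoding IFN-γ, had at most 1 read in a choroid plexus library and at most 8 in a hypothalamus library. Of 17 receptors, kinases and transcription factors, none passed the adjusted threshold in choroid plexus, 12 were above 0 and the median was 0.041. The receptor genes Ifnar1, Ifnar2, Ifngr1 and Ifngr2 had folds of 1.0, 1.03, 0.963 and 0.947, and the kinases Jak1 and Tyk2 had 1.07 and 1.01. Irf1, a factor induced by IFN-γ, had a fold of 1.13, and Irf8, a factor of macrophage lineages, had 1.21.

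A further 69 interferon-stimulated genes outside the members had 61 tested in choroid plexus. Of these 49 were above 0 (48.4% of all genes were), the median was 0.27, and at an unadjusted p under 0.05 there were 9 with a higher mean in Ins2 libraries and 0 with a lower one, against 2.54% and 3.67% of all genes. None passed the adjusted threshold. Nlrc5, the transactivator of MHC class I genes, had 297, 397, 353, 222, 161 and 346 scaled reads in Ins2 replicates 1 to 6, against 147, 203, 144, 171 and 176 in control replicates 1 to 5. Its fold was 1.69 with a 95% interval of 1.28 to 2.23 (limma adjusted p 0.414), and replicate 5 was the Ins2 library inside the control range. Tgtp1, another immunity-related GTPase, had a fold of 1.42 (limma adjusted p 0.614). Of 11 sensing adaptor genes 10 were tested, 5 above 0 and 5 below, and none passed. Sting1, the adaptor of cytosolic DNA sensing, had a fold of 1.53, and Ticam1, the adaptor of TLR3, had 0.890 (limma adjusted p 0.758 and 0.795).

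Markers of immune cells were summed in each choroid plexus library. The summed T and NK cell markers (12 of 13 found in the table) ranged over 75.4 to 191 scaled reads in Ins2 libraries, against 25.9 to 82.6 in control libraries. In Ins2 replicates 1 to 6 that sum was 121, 166, 85.6, 89.0, 75.4 and 191. Replicates 1 to 4 and 6 were above every control in this sum, and replicate 5 was inside the control range. The only markers tested, Cd8a and Cxcr6, averaged 32.3 and 31.6 scaled reads in Ins2 libraries, against 6.01 and 12.4 in control libraries. Cd8a passed the minimum only through the Ins2 group, so it had to differ. All other markers of this sum were under the minimum. Of them, Cd4, Gzmb and Ncr1 had a lower mean in Ins2 libraries and the rest a higher one. The B and plasma cell sum (6 of 8 found) ranged over 60.9 to 221 scaled reads in Ins2 libraries, against 22.8 to 46.7 in control libraries, groups that did not overlap. It held Jchain, the other gene to pass the adjusted threshold (fold 17.1, limma adjusted p 0.0131). Jchain averaged 4.57 scaled reads in control libraries and passed the minimum only through the Ins2 group, where it is high. Jchain thus had to differ, and its values, and the separation of the sum that holds it, are a description. Mzb1, the other marker of this sum tested, ranged over 20.0 to 51.2 scaled reads in Ins2 libraries, against 16.8 to 27.8 in control libraries. Those ranges overlap. The sum without Jchain is not given. The macrophage and microglia sum (15 of 15 found) ranged over 1400 to 2827 scaled reads in Ins2 libraries, against 822 to 2194 in control libraries. Of its 14 tested markers, 11 had a log2 fold change above 0 and the median was 0.29. Ptprc, the pan-leukocyte antigen CD45, had a fold of 1.86 (limma adjusted p 0.645). The neutrophil sum (6 of 6 found) ranged over 24.2 to 57.1 scaled reads in Ins2 libraries, against 6.48 to 44.5 in control libraries. Csf3r, the 1 neutrophil marker tested, had a fold of 2.66 (limma adjusted p 0.645), while Ly6g and Mmp8 were at 0 in every choroid plexus library. The other markers of this sum were near the floor. S100a8 and S100a9 averaged 0.942 and 1.63 scaled reads in Ins2 libraries, against 2.60 and 3.57 in control libraries. Retnlg averaged 0.314 against 0. The part of these cell markers in the member values was not tested. In bulk tissue, a change in the number of cells of a type and a change in RNA per cell cannot be told apart.

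In hypothalamus, no member passed an adjusted p of 0.05, against 0 of 16363 genes tested (0%). Over all genes edgeR also called 0 and DESeq2 called 41. The smallest adjusted p of a member was 0.402, for Ifit1 (limma). At an unadjusted p under 0.05, 3 members had a lower mean in Ins2 libraries (Ifit1, Oasl2 and Ifi27), 7.69% of the 39 against 4.08% of all genes, and 0 had a higher one, against 5.85% of all genes. Leaving out 1 library at a time, the count with a lower mean was 1 without Ins2 replicate 2, Ins2 replicate 3, control 2 or control 3, and 5 without Ins2 replicate 1. Under DESeq2 and edgeR, run on reads recovered from the values, it was 3 in each, with 0 members past the adjusted threshold. The log2 fold change was below 0 for 28 of the 39 members, against 49.7% of all genes, and above 0 for 11, against 50.3%. No tested member had groups that did not overlap, against 0.77% of all genes with Ins2 above control and 0.727% with Ins2 below. The median was −0.11 beside 0.0011 over all genes. Without Mx1, which passed the minimum through the control group only, 27 of 38 were below 0 and the median was again −0.11.

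Scores in Ins2 hypothalamus were 0.072, −0.18, −0.20, −0.24 and −0.098 in replicates 1 to 5, against −0.087, 0.0077, 0.029, 0.077 and −0.027 in control replicates 1, 2, 3, 4 and 6. Replicates 2 to 5 of the Ins2 group lay below every control, and replicate 1 lay just under the highest control. These scores and their group means include Mx1, which passed the minimum only through the control group, where it is high. Mx1 was lowest in Ins2 replicate 1, so the place of that replicate under the highest control may depend on it. Scores without Mx1 are not given. The mean was −0.13 ± 0.12 in Ins2 libraries and 0 ± 0.062 in control libraries (SD, n = 5 each). Control 4 was the highest of all 10 libraries for 13 members, and Ins2 replicate 2 the lowest for 9.

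Ifit1 had 155, 126, 126, 114 and 134 scaled reads in Ins2 hypothalamus, against 191, 182, 169, 141 and 169 in control hypothalamus. In 4 of the 5 Ins2 libraries it was below every control, and replicate 1 was inside the control range. The fold was 0.770 with a 95% interval of 0.623 to 0.950 (limma adjusted p 0.402), and an exact permutation test over 252 splits gave p = 0.0159. Oasl2 had 284, 202, 244, 213 and 222 scaled reads in Ins2 libraries, against 282, 281, 293, 214 and 371 in control libraries. Its fold was 0.815 (limma adjusted p 0.498, exact permutation p = 0.103). Ins2 replicate 1 was above controls 1, 2 and 4, so the ranges overlapped. Ifi27 had 1133, 885, 851, 1007 and 1036 scaled reads in Ins2 libraries, against 1011, 1163, 1171, 1298 and 979 in control libraries. Its fold was 0.874 (limma adjusted p 0.477, exact permutation p = 0.119).

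Mx1 passed the minimum in hypothalamus only through the control group, where it is high, so it had to differ and its values are a description. It had 2.11, 7.48, 2.95, 6.90 and 15.5 scaled reads in Ins2 libraries, against 8.95, 12.5, 13.7, 20.3 and 14.3 in control libraries. Ins2 replicates 1 to 4 lay under the lowest control, and replicate 5 was inside the control range. Its fold was 0.462 with a 95% interval of 0.20 to 1.07 (limma adjusted p 0.539). Ifi44 had a fold of 0.685. Gbp3 had 202, 124, 157, 172 and 165 scaled reads in Ins2 libraries, against 205, 208, 184, 226 and 173 in control libraries, a fold of 0.820 (limma adjusted p 0.530). All 5 GTPases were below 0 with a median of −0.14, and Irgm1 had a fold of 0.874.

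Of the remaining roles in hypothalamus, Usp18 had 59.0, 64.4, 39.4, 41.4 and 45.3 scaled reads in Ins2 libraries, against 46.2, 84.4, 52.9, 138 and 37.6 in control libraries, where control 4 was far above the rest. Its fold was 0.768 (limma adjusted p 0.699), while Isg15 had 1.1. The ISG15 system thus had a median of 0.033 and a mean of −0.072 on the log2 scale, which differ in sign. Irf9 had 769.6, 679, 660.4, 592 and 571 scaled reads in Ins2 libraries, against 655, 825, 610.1, 774 and 699 in control libraries, a fold of 0.919 (limma adjusted p 0.693). Eif2ak2 had 278, 256, 253, 269 and 313 scaled reads in Ins2 libraries, against 238, 236, 220.3, 293 and 259 in control libraries, a fold of 1.1 (limma adjusted p 0.713). Parp9 had 196, 126, 139.8, 133 and 136 scaled reads in Ins2 libraries, against 174, 184, 123, 185 and 169.9 in control libraries, a fold of 0.872 (limma adjusted p 0.703). Ins2 replicate 1 was the highest and control 3 the lowest of all for this gene.

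The members not yet named in hypothalamus had folds between 0.852 and 1.12. Stat2 and Irf7 had folds of 0.975 and 0.865, and Herc6 had 1.02. The sensors Ddx58, Ifih1, Dhx58 and Trim25 had folds of 0.908, 1.01, 0.852 and 0.955. Oas2 and Oas3, which could be tested in this tissue, had folds of 1.12 and 1.11, and Ifit2 and Ifit3 had 1.03 and 0.918. Of the other effectors, Mx2, Rsad2, Bst2 and Ifitm3 had folds of 0.859, 0.880, 0.866 and 0.915, and Cmpk2 had 1.02. With Mx1, whose direction was set by the minimum, 5 of 6 effectors were below 0 on the log2 scale. Gbp2, Gbp7 and Igtp had folds of 0.958, 0.925 and 0.906. Dtx3l, Parp12 and Parp14 had folds of 0.931, 1.0 and 0.947. Rtp4, Ifi35, Xaf1, Samd9l and Lgals3bp had folds of 0.994, 0.949, 1.08, 1.06 and 0.951. Zbp1 averaged 5.21 ± 3.51 scaled reads in Ins2 libraries and 5.98 ± 5.32 in control libraries, and Oasl1 averaged 9.74 ± 6.47 and 9.07 ± 10.2 (SD, n = 5 each).

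Among pathway genes in hypothalamus, Irf1 had a fold of 0.927, Jak1 and Tyk2 had 1.02 and 0.939, and Ifnar1, Ifnar2, Ifngr1 and Ifngr2 had 0.983, 1.02, 1.0 and 1.01. Il10rb, a shared receptor subunit, had the smallest p of its list with a fold of 0.870 (limma adjusted p 0.547). All 11 sensing adaptors were tested, 5 were above 0 and none passed. Taken as a list, the 17 receptors, kinases and transcription factors had a median of −0.024 with none past the threshold. Of the 69 further interferon-stimulated genes 53 were tested, 37 were below 0 (49.7% of all genes were), the median was −0.14, and none passed the adjusted threshold. At an unadjusted p under 0.05, 1 had a higher and 8 a lower mean in Ins2 libraries, against 5.85% and 4.08% of all genes. Ddx60, a helicase that assists RIG-I, had 51.7, 35.7, 33.5, 31.0 and 69.0 scaled reads in Ins2 libraries, against 107, 94.7, 62.7, 59.6 and 93.4 in control libraries, a fold of 0.524 (limma adjusted p 0.326). Ifitm1, a relative of Ifitm3, had a fold of 2.44 in the other direction (limma adjusted p 0.326). Summed immune cell markers overlapped between the groups, with 28.2 to 56.9 scaled reads of T and NK cell markers in Ins2 libraries, against 23.3 to 52.5 in control libraries, and 9432 to 10221 of macrophage and microglia markers, against 9472 to 10208. Ncr1, an NK cell marker, was at 0 in every hypothalamus library.

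The choroid plexus and hypothalamus fold changes were compared gene by gene for the 36 members tested in both tissues, by the difference of the log2 fold changes (choroid plexus minus hypothalamus). The test took the libraries of both tissues as independent. No member passed an adjusted p of 0.05, against 15 of 13997 genes (0.107%). The difference was above 0 for 32 of the 36 members, against 49.1% of all genes. At an unadjusted p under 0.05, 6 members were positive (Irgm1, Ifit1, Parp9, Igtp, Gbp3 and Ifi44), 16.7% against 4.74% of all genes, and 0 were negative, against 5.86%. With DESeq2 estimates 4 were positive and none passed. Irgm1 had the smallest adjusted p, 0.175, for a difference of 0.70 with a 95% interval of 0.29 to 1.11. The count of 6 was 3 without choroid plexus Ins2 replicate 3 or 6 and 9 without replicate 4. Ifit1 differed by 0.85 with a 95% interval of 0.20 to 1.5 (adjusted p 0.328), being above 0 in choroid plexus and below 0 in hypothalamus. Eif2ak2, Ifit2, Rsad2 and Cmpk2 were the 4 members whose difference was below 0.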

How the data were processed

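The authors deposited 1 table of scaled read counts per tissue, which is a signal value and not a raw count, made with HISAT2, featureCounts and DESeq2 on GRCm38 (mm10), per the submitters' processing notes; the sources used here give no version and no strand setting. Dividing each value by the smallest step of its library gave whole reads for 100% of values within 0.02, and these recovered reads were used only as an alternative. The members and the gene lists were chosen with earlier results of these data known.

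Each tissue was fitted separately with limma 3.58.1 (R 4.3.3) on log2(value + 1) with the trend option, over genes with a mean of at least 10, and p-values were adjusted over all of them (Benjamini-Hochberg, threshold 0.05). A fold change on this scale understates that of genes with low values. Tissue differences used both standard errors with Welch-Satterthwaite degrees of freedom. That takes the libraries of both tissues as independent, and whether any came from the same mice was not tested. Single members were also given an exact two-sided permutation test, whose p is not printed for every member. Fits were tested on simulated data. Values per library were given for the member with the smallest p of each of 9 roles in each tissue; other members named were chosen after their values were seen. Alternatives were pseudocounts of 0.5 and 5, no minimum, a minimum of 50, equal totals, TMM factors, array weights, edgeR 4.0.16, DESeq2 1.42.0, a replicate block, leaving out each library, and leaving out choroid plexus controls 2 and 5. Member counts at an unadjusted p under 0.05 in these alternatives are given without the share of all genes. They show only how the member count moved. Exon lengths and overlaps came from GENCODE vM21 (GRCm38). Standard errors of member log2 fold changes had medians of 0.17 (choroid plexus) and 0.15 (hypothalamus). Limits given as 3 reads cover counting error only.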

Additional observations from a re-analysis of the deposited data

Results flagged for a closer look

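Single libraries stood far from the rest of their group for 9 of the 156 member groups checked (Dixon's test at the 95% level), where chance alone gives about 5%. In choroid plexus, Herc6 was 594 scaled reads in Ins2 replicate 5, below the other Ins2 libraries. Isg15 was 26.1 in control 3, above the other controls, which is the library that sets its overlap with the Ins2 group. Eif2ak2 was 1546 in control 5. In hypothalamus, Parp9 was 196 in Ins2 replicate 1, above the other Ins2 libraries, and 123 in control 3, below the other controls. Isg15 was 40.3 and Ifi35 was 91.7 in control 1, both below the other controls. Trim25 was 619 in control 2, and Ifit3 was 884 in control 4, both above the other controls.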

How the results depend on the processing

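No member passed the adjusted threshold in either tissue, or between tissues, under any alternative, and no member median changed sign. The member median ran from 0.085 to 0.20 in choroid plexus and from −0.14 to −0.087 in hypothalamus. Over all genes, the 2 calls of choroid plexus became 1 with a minimum of 50, 6 with array weights (2 higher, 4 lower), 34 with DESeq2 (3 higher, 31 lower) and 1 to 4 when each library was left out. The 0 calls of hypothalamus became 41 with DESeq2 (31 higher, 10 lower) and 0 to 18 when each library was left out, with 18 without control 6 and 1 without control 4. The cause of these differences was not tested. Replicate numbers did not pair the libraries: correlations of same-numbered libraries ran from −0.15 to 0.14 over 5 pairs in choroid plexus, where 1 library correlated best with its own number, and from −0.070 to 0.0089 over 4 pairs in hypothalamus, where 0 did. A replicate block gave 2 calls in choroid plexus and 57 in hypothalamus (50 higher, 7 lower), with member medians of 0.085 and −0.12. Between tissues, the smallest adjusted p of a member ran from 0.069 to 0.32 over 31 alternatives; edgeR was not run there, since it gives no standard error. On untransformed values the exact permutation p of Irgm1 and Isg15 in choroid plexus was 0.054 and 0.065. Oas2, Oas3, Oasl1 and Mx1 in choroid plexus and Zbp1 and Oasl1 in hypothalamus were under the minimum of 10 scaled reads and were not tested there.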
